A study of Mus musculus with 6 samples.

Results

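Imprinted genes at loci other than Igf2-H19 and Dlk1-Dio3 were examined in polyA RNA of mouse embryonic stem cells (ESCs). The set holds 35 genes, taken by name and read by domain and by the parental allele that is expressed. Of the 35 genes, 33 had a row among the 37620 rows of the count table, and *Snrpn* and *Kcnq1ot1* were not analysed here. The filter on low counts kept 31 of them, among 16023 genes tested. *Kcnq1* (1, 5 and 2 counts in the wild-type and 3, 5 and 15 in the S138A libraries) and *Rasgrf1* (1, 0 and 0, and 1, 3 and 1) did not pass it and are given as counts only.

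The cells were E14 ESCs of strain 129/Ola. Wild-type cells were compared with cells carrying S138A, a serine to alanine change in UBE2D3, an enzyme that passes ubiquitin to substrates together with E3 ligases. There were 3 libraries of each genotype, all from undifferentiated cells in serum, which the study's methods describe as kept on gelatin with LIF. The mutant cells were picked as clones after CRISPR/Cas9 editing. The clone behind these libraries is not named in the labels, so the mutation and a difference between clones cannot be told apart. Nor do the labels say whether the 3 libraries of a genotype are separate cultures, so the p-values measure only the spread between libraries, which may be technical. The wild-type libraries are called wild-type 1, 2 and 3. Those of the mutant are called S138A A, B and C, since their columns could be matched to the genotype but not to a replicate.

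Imprinted genes are expressed mainly from the copy inherited from one parent. In most cases the choice is set by DNA methylation laid down in the egg or the sperm at a control region. That methylation is kept after fertilization by factors such as ZFP57, TRIM28 and DNMT1. Several paternally expressed genes start inside a control region that is methylated in the egg, so that the maternal copy is silent. Maternally expressed neighbours in the same domain may be silenced on the paternal copy by a long noncoding RNA, as *Airn* does at *Igf2r* and *Kcnq1ot1* at *Cdkn1c*. Some of the maternally expressed genes listed here are imprinted only in certain tissues, such as placenta or brain. The counts do not separate the alleles, so every value below is the sum over both copies, and DNA methylation was not measured.

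The libraries held 33227593 to 37169770 counts. On principal components of log2 CPM (counts scaled to a common library size by TMM factors), component 1 held 56.2% of the variance and set wild-type 3 and S138A C apart from the other 4 libraries, and component 2 held 25.3% and separated the genotypes. The markers of ESCs were at 6871 to 7141 CPM in sum in wild-type and 6889 to 7003 in S138A libraries. The log2 fold change of *Ube2d3* was -0.06 (edgeR adjusted p = 0.945), a check that cannot show the amino acid change. Because wild-type 3 and S138A C stood apart together, values are also given within each set of libraries, and from a model that adds the replicate number (the replicate block).

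Promoters are shown for 6 paternally expressed genes whose start lies at a germline mark, to show where a known motif lies in windows of this kind. They include *Nnat* and *Nap1l5*, with the lowest log2 fold changes of the set (-1.99 and -1.50), and *Mest* (-0.19). The next lowest genes, *Asb4* (-0.90) and *Usp29* (-0.81), are not shown. The *Usp29* window overlaps that of *Peg3*, which starts at a germline mark. *Airn*, which also starts at a germline mark and had the highest value (0.99), is not shown either. Each window runs 5′ to 3′ on the strand of the gene, from 250 bases before to 50 bases after the RefSeq start (GRCm38.p6). Capitals mark TGCCGC, the core that ZFP57 binds when it is methylated, or GCGGCA, the same core on the other strand. No other motif was searched.

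Nnat, chr2:157559828-157560127, + strand: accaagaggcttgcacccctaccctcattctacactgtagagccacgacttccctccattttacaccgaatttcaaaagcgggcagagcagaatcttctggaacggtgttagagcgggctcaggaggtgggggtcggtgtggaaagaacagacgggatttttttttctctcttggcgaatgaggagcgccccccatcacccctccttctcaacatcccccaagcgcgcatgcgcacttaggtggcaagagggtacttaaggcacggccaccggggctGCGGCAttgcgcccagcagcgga
Nap1l5, chr6:58907077-58907376, - strand: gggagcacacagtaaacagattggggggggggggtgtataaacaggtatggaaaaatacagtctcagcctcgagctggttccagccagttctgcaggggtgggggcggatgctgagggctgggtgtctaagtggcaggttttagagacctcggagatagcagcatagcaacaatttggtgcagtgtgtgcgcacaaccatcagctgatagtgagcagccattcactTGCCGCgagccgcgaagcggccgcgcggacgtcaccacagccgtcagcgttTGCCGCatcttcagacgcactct
Mcts2, chr2:152686898-152687197, + strand: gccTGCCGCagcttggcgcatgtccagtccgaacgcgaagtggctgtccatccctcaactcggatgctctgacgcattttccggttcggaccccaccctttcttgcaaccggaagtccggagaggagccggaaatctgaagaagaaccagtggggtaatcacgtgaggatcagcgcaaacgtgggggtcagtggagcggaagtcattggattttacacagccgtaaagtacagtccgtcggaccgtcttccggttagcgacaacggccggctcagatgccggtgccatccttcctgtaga
Plagl1, chr10:13090582-13090881, + strand: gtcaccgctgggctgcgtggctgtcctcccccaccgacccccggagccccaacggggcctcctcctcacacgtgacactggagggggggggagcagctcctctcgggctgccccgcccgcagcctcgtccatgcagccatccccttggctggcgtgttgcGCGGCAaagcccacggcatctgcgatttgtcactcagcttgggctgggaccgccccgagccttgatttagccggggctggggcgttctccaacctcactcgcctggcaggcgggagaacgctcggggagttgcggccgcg
Mest, chr6:30737800-30738099, + strand: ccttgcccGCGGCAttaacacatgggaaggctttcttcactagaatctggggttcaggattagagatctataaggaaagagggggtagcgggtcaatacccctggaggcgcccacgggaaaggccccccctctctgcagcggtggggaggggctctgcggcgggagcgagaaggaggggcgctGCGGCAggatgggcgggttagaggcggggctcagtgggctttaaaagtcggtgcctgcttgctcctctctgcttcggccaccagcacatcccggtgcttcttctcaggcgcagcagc
Zrsr1, chr11:22971755-22972054, + strand: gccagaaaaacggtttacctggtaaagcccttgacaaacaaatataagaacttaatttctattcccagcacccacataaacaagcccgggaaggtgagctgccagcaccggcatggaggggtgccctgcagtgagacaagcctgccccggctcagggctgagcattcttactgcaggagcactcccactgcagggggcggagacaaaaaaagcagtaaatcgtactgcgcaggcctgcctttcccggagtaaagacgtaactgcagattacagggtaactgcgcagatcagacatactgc

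The core lies at base 278 of the *Nnat* window, counted from 1 at its 5′ end. It lies at bases 227 and 278 in *Nap1l5*, at base 4 in *Mcts2*, at base 161 in *Plagl1* and at bases 9 and 184 in *Mest*. The *Zrsr1* window holds no match to these letters. Nor do the windows of *Peg3*, *Airn* and *Kcnq1ot1*, which also start at germline marks and are not shown. The *Usp29* window, which overlaps that of *Peg3*, holds none either. RefSeq windows matched 30 of the 35 genes, and 10 of the 30 (33.3%) hold the core in at least 1 window, which are *Nnat*, *Nap1l5*, *Mcts2*, *Plagl1*, *Mest* and *Snrpn* among 16 paternally expressed genes and *Commd1*, *Copg2*, *Grb10* and *Zim1* among 13 maternally expressed ones. Over all genes with windows 13.1% hold it in at least 1, and genes with more windows have more places for a match. By window the core is in 25% of the 44 windows of the set and in 11.6% of the 32851 windows of the table. The median number of CpG sites was 17 per window in the set and 7 in the whole table, and longer control regions outside the windows were not searched.

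The imprinted genes covered a wide range of levels in wild-type ESCs. Per kilobase of annotated exon, *Peg10*, a gene derived from a retrotransposon and needed in the placenta, had the highest level (166 ± 7.53 CPM per kb, SD, n = 3 libraries). The amino acid transporter gene *Slc38a4* (62.6 ± 9.87) and *Cd81* (61.0 ± 3.44), which encodes a tetraspanin of the cell surface, followed and did not differ beyond their spread. *Mcts2* (41.9 ± 2.83), *Phlda2* (40.1 ± 2.35) and *Grb10* (39.6 ± 2.83) were also within their spread of each other, as were *Impact* (33.9 ± 1.97) and *Mest* (32.5 ± 6.30). Below these, *Tssc4* was at 17.8, *Gnas* at 15.1, *Cdkn1c* at 13.4, *Igf2r* at 12.6, *Blcap* at 12.5, *Peg3* at 11.4 and *Copg2* at 11.3 CPM per kb. *Zrsr1*, *Commd1*, *Ppp1r9a*, *Mkrn3*, *Ndn*, *H13*, *Nnat* and *Slc22a18* lay between 6.78 and 1.10 CPM per kb. The lowest of the 31 genes tested were *Plagl1*, *Nap1l5*, *Zim1*, *Usp29*, *Magel2*, *Sgce*, *Asb4* and *Airn*, from 0.34 down to 0.09 CPM per kb.

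No imprinted gene passed the test on all 6 libraries. Of 16 paternally expressed genes 11 had a negative log2 fold change, with a median of -0.24. Of 14 maternally expressed genes 11 had a positive one, with a median of 0.22. Without S138A C, 7 of these 14 were positive and the median was -0.03, while 12 of the 16 paternally expressed genes were negative with a median of -0.19. Leaving out any other library gave 10 or 11 positive maternally expressed genes and 9 to 13 negative paternally expressed ones, with 9 without wild-type 3. Over all 16023 genes tested the median was 0.02 and 52.4% were positive. The difference between the classes was not itself tested. edgeR's quasi-likelihood test called 0 of the 31 genes at a Benjamini-Hochberg adjusted p under 0.05, with 0.210 the lowest adjusted p, and 0 of all genes (0.00%), while 8 of the 31 and 2270 of all genes had an unadjusted p under 0.05. DESeq2 called *Nnat* and *Zrsr1* lower (adjusted p = 0.0107 and 0.0208), where it called 5.39% of the genes to which it gave an adjusted p. It gave none to *Airn* and *Nap1l5*.

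With the replicate block, 7 of the 31 genes (22.6%) were called, against 19.8% of all genes tested. *Cdkn1c*, *Phlda2*, *Cd81*, *H13* and *Gnas* were called higher (5 of 31, where 10.7% of all genes were), and *Nnat* and *Zrsr1* lower (2 of 31, where 9.13% were). All called members of the maternal class, 4 of 14, were higher, and all called members of the paternal class, 2 of 16, were lower. The classes hold the listed genes only. Neighbours of the domains, which were not screened for imprinting and were called in both directions, are given below. *Gnas* belongs to neither class, since its promoters differ in which allele they use. Leaving out wild-type 3 and S138A C, edgeR called 10 of the 31 genes, where it called 29.6% of all genes tested. These were *Nnat*, *Zrsr1* and *Mcts2* lower and *Ndn*, *Cdkn1c*, *Phlda2*, *Cd81*, *Tssc4*, *Igf2r* and *Gnas* higher. In those 4 libraries the median was -0.12 for the paternal class, with 13 of 16 negative, and 0.11 for the maternal class, with 9 of 14 positive. The block rests on the final digit of the column names, and correlations of the libraries' deviations cannot tell the numbers 1 and 2 apart. With those numbers crossed the block again called 7 genes, with *Igf2r* in place of *H13*.

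**Figure D1:**
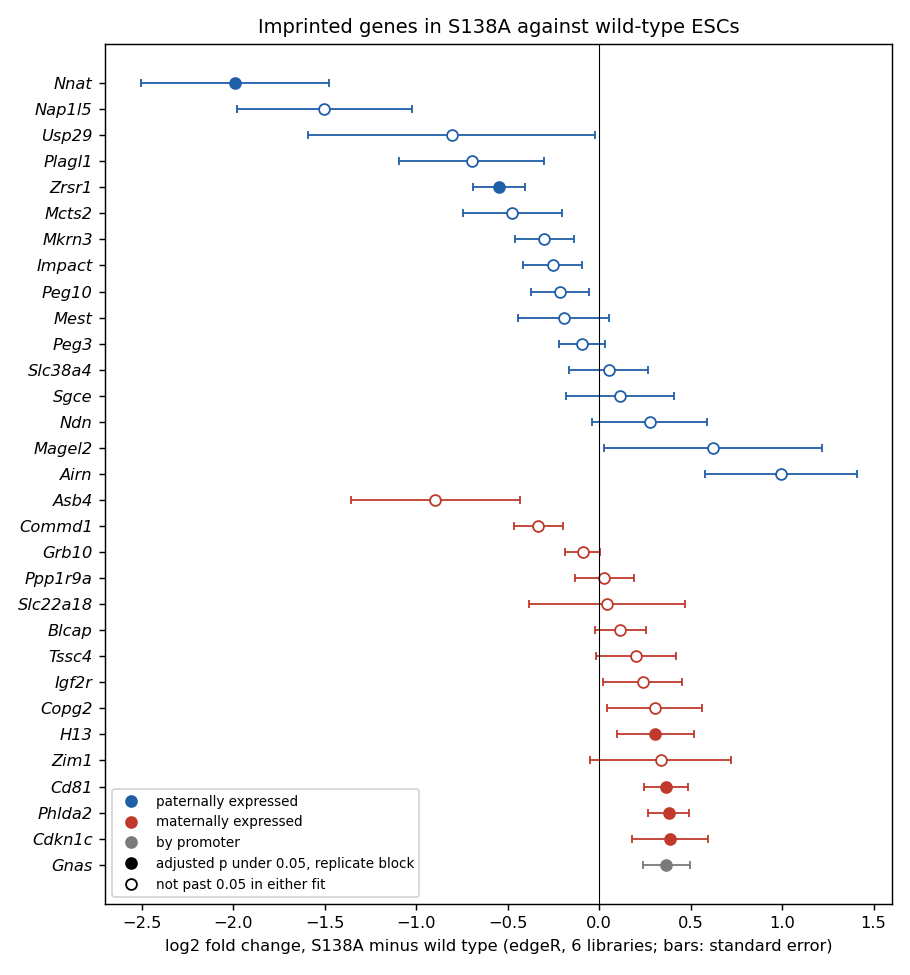
The log2 fold change of each of the 31 imprinted genes tested, S138A minus wild-type, on the horizontal axis, with genes on the vertical axis coloured by the allele expressed. Points and bars are the estimate and standard error from edgeR on all 6 libraries, and filled points are the 7 genes called with the replicate block. *Nnat* lies at -1.99 and *Airn* at 0.99, the ends of the range.

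The groups of 3 libraries did not overlap for 10 of the 31 genes (32.3%). *Airn*, *Phlda2*, *Cd81* and *Gnas* were higher in all S138A than in all wild-type libraries (4 of 31, where 11.3% of all genes were). *Nnat*, *Nap1l5*, *Zrsr1*, *Mcts2*, *Mkrn3* and *Commd1* were lower in all of them (6 of 31, where 10.9% of all genes were). For each such gene the exact two-sided permutation test gave 0.1, the smallest p that 3 libraries against 3 allow.

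Among the paternally expressed genes the lowest fold changes were those of *Nnat* and *Nap1l5*. *Nnat* encodes neuronatin, a small membrane protein of the endoplasmic reticulum found in the developing brain. It had 2.09, 2.44 and 7.10 CPM in wild-type against 0.84, 0.98 and 1.11 CPM in S138A libraries. The level in wild-type 3 was the highest of the 6, and every S138A library was below every wild-type library. The log2 fold change was -1.99 (standard error (SE) 0.51, adjusted p = 0.210 from edgeR), and it was called with the block (adjusted p = 0.0120). Without wild-type 3 the log2 fold change was -1.21, and in the 4 libraries without wild-type 3 and S138A C it was -1.31 (adjusted p = 0.00436 from edgeR). The direction was the same with and without that library, and the size was not. *Pax6*, a neural marker, had 9.96, 9.62 and 2.75 CPM in wild-type against 2.64, 2.66 and 1.62 in S138A libraries. It had a log2 fold change of -1.69 and was called lower with the block (adjusted p = 0.0101 from edgeR). Within wild-type, though, *Pax6* was lowest in wild-type 3, where *Nnat* was highest. Among the other neural markers tested, *Otx2* was called lower with the block, and *Nes*, *Tubb3* and *Map2* were not called. The part of *Pax6* in the value of *Nnat* was not tested.

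*Nap1l5*, a single-exon gene of the nucleosome assembly protein family inside an intron of *Herc3*, had few reads, with 11, 16 and 34 counts in wild-type against 6, 10 and 6 in S138A libraries. These are 0.33, 0.51 and 0.89 CPM against 0.17, 0.27 and 0.16. The groups did not overlap, and the log2 fold change of -1.50 (SE 0.48) was not called in the 6 libraries (adjusted p = 0.258 from edgeR) or with the block (adjusted p = 0.0512). *Plagl1*, the gene of a zinc finger factor that regulates other imprinted genes, had 1.85, 1.90 and 4.30 CPM in wild-type against 1.88, 1.79 and 1.29 in S138A libraries. Its log2 fold change of -0.70 (adjusted p = 0.483 from edgeR) was -0.18 without wild-type 3, and -0.03 in the 4 libraries.

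*Zrsr1* and *Mcts2* are retrogenes, copies of an X-linked gene that landed in an intron of a host and are expressed from the paternal allele. *Zrsr1*, related to the splicing factor gene *Zrsr2*, had 30.4, 29.1 and 31.8 CPM in wild-type against 21.1, 23.9 and 17.6 CPM in S138A libraries. The wild-type libraries lay close together and all 3 S138A libraries were lower. On the log2 scale the fold change was -0.55 (SE 0.14, adjusted p = 0.210 from edgeR), and the gene was called with the block (adjusted p = 0.0204) and in the 4 libraries (adjusted p = 0.0117). *Commd1*, its host and a gene of copper and NF-κB regulation expressed mainly from the maternal allele in adult brain, was also lower in all S138A libraries, with 37.4, 34.2 and 43.6 CPM against 28.0, 34.0 and 29.5. Its log2 fold change of -0.33 was not called with or without the block (adjusted p = 0.0798 and 0.337 from edgeR). Exons of the 2 genes share 412 bases on opposite strands, and the strand setting of the counting is not stated. The log2 fold change of *Zrsr2* was -0.05 (edgeR adjusted p = 0.903).

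*Mcts2*, a copy of the translation factor gene *Mcts1*, had 40.0, 39.4 and 35.3 CPM in wild-type against 33.6, 32.8 and 16.2 CPM in S138A libraries. S138A C held less than the other mutant libraries, and the groups did not overlap. This gave a log2 fold change of -0.47 (SE 0.27, adjusted p = 0.481 from edgeR), with an adjusted p of 0.0594 under the block. DESeq2 with the block called it lower (adjusted p = 0.00731). In the 4 libraries it was -0.26 and was called (adjusted p = 0.0206 from edgeR). *Mcts1* had a log2 fold change of -0.45 and was called lower with the block (adjusted p = 0.0212), and how the counting divided reads that match both copies is not stated. *H13*, the host of *Mcts2* and the gene of signal peptide peptidase, had 20.9, 23.8 and 14.9 CPM in wild-type against 24.4, 28.8 and 20.5 in S138A libraries. Each S138A library was above the wild-type library that the block sets beside it by column name, while the groups overlapped. edgeR estimated a log2 fold change of 0.31 (SE 0.21, adjusted p = 0.562). The call with the block (adjusted p = 0.0450) was lost with the numbers 1 and 2 crossed (adjusted p = 0.0768) and in the 4 libraries (adjusted p = 0.110).

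**Figure D2:**
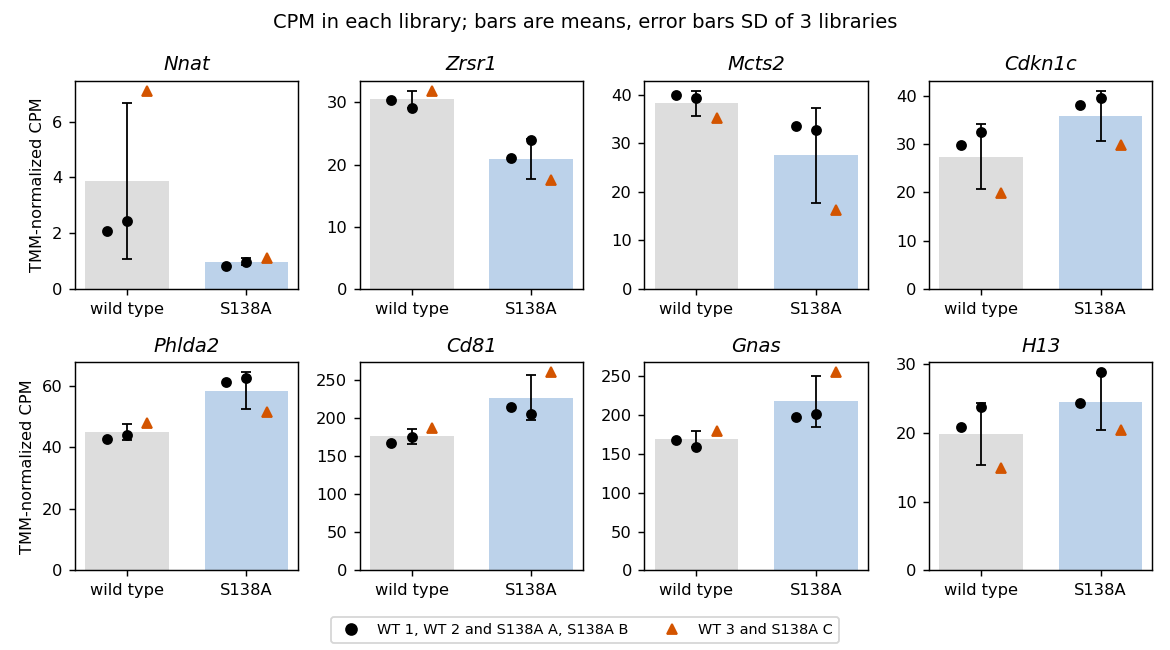
TMM-normalized CPM in each library for 8 imprinted genes, with wild-type and S138A on the horizontal axis of each panel. Bars are means of 3 libraries, error bars are SD, circles are the 4 libraries that lay together on component 1, and triangles are wild-type 3 and S138A C. *Nnat* in wild-type 3 (7.10 CPM) lies above the other libraries, and the S138A values of *Zrsr1* lie between 17.6 and 23.9 CPM, below the wild-type ones.

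The *Kcnq1* domain on chromosome 7 was represented by *Cdkn1c*, *Phlda2*, *Slc22a18*, *Cd81* and *Tssc4*, all listed here as maternally expressed. Some listed genes are imprinted only in certain tissues, and the allele expressed in these cells was not measured. These 5 listed genes all had positive log2 fold changes, from 0.04 to 0.39 with a median of 0.36. Over all genes tested 52.4% were positive. With the block 3 of the 5 were called higher, where 10.7% of all genes were. The sign was the same within both sets of libraries for 3 of the 5 (60%, against 69.8% of all genes). *Slc22a18* turned to -0.06 in the 4 libraries. Neighbours of this domain that are not in the set went both ways in the 6 libraries. *Ascl2* (-0.03), *Tspan32* (-0.12) and *Cars* (-0.13) had negative log2 fold changes. Those of *Nap1l4* (0.06), *Tnfrsf22* (0.04), *Tnfrsf23* (0.47), *Osbpl5* (0.46), *Dhcr7* (0.14) and *Nadsyn1* (0.29) were positive. None of these neighbours was called with the block. *Cdkn1c* encodes p57, an inhibitor of cyclin-dependent kinases that restrains growth. It had 29.8, 32.5 and 19.9 CPM in wild-type against 38.0, 39.5 and 29.8 CPM in S138A libraries. Wild-type 3 and S138A C were lowest in their groups, and S138A C lay inside the wild-type range. As a log2 fold change this was 0.39 (SE 0.21, adjusted p = 0.462 from edgeR), with an adjusted p of 0.0229 under the block and 0.0176 in the 4 libraries. Its exons share 625 bases with *Gm44732* on the opposite strand.

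*Phlda2*, the gene of a small pleckstrin homology protein that limits growth of the placenta, had 42.8, 44.1 and 47.9 CPM in wild-type against 61.3, 62.4 and 51.6 CPM in S138A libraries. All 3 S138A libraries were above all wild-type libraries, with the smallest gap between wild-type 3 and S138A C. The log2 fold change was 0.38 (SE 0.11, adjusted p = 0.237 from edgeR), and it was called with the block (adjusted p = 0.0359). It was 0.11 between S138A C and wild-type 3 and 0.51 between the means of the other 4 libraries. *Cd81* had 166, 174 and 186 CPM in wild-type against 214, 204 and 259.5 CPM in S138A libraries. These groups did not overlap either, and here the highest value was in S138A C. On the log2 scale the fold change was 0.36 (SE 0.12, adjusted p = 0.263 from edgeR), with an adjusted p of 0.0183 under the block.

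*Tssc4*, whose product takes part in assembly of the spliceosome, had 33.6, 36.3 and 28.6 CPM in wild-type against 41.6, 45.3 and 26.0 CPM in S138A libraries. S138A A and B were above every wild-type library and S138A C was below all of them. Among the fits run, it was called higher only where wild-type 3 and S138A C were left out (log2 fold change 0.31, adjusted p = 0.0196 from edgeR), against 0.20 and an adjusted p of 0.726 in all 6 libraries. *Slc22a18*, a transporter gene, had 1.30 to 2.67 CPM in wild-type and 1.30 to 2.97 in S138A libraries, and a log2 fold change of 0.04, which was -0.42 without S138A C. Markers of trophoblast, in which several genes of this domain are active, moved with part of these values. The sum of 10 such markers was 491 to 539 CPM in wild-type libraries and 754, 804 and 422 CPM in S138A A, B and C. The keratin genes *Krt8* and *Krt18* made up most of this sum. With the block 3 of 9 markers tested were called higher (33.3%, against 10.7% of all genes). In the other direction 1, *Tfap2c* (-0.29), was called lower (11.1%, against 9.13%). *Krt7* had 7.47 to 8.35 CPM in wild-type against 17.5, 19.5 and 13.4 CPM in S138A libraries (log2 fold change 1.11, adjusted p = 0.00582 from edgeR with the block). *Cdx2* (2.33, adjusted p = 0.0113) and *Gata3* (0.61, adjusted p = 0.0468) were called higher too, and all 3 were above every wild-type library in every S138A library, S138A C included. Of the 10 markers 8 were at 1 CPM or more in every library, while *Elf5* reached at most 0.21 CPM and *Cdx2* ranged from 0.18 to 1.93 CPM. Their part in the values of the domain was not tested.

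*Gnas*, a locus with maternal, paternal and biallelic promoters whose main product is the stimulatory G protein alpha subunit, had 167, 159 and 179 CPM in wild-type against 197, 201 and 255 CPM in S138A libraries. The groups did not overlap. This gave a log2 fold change of 0.37 (SE 0.13, adjusted p = 0.287 from edgeR), and it was called with the block (adjusted p = 0.0198) and in the 4 libraries (adjusted p = 0.00936). The counts of this gene are summed over its promoters, and 988 of its exon bases are shared with the antisense gene *Nespas* and 1469 with *Gm20721*, also on the opposite strand.

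At the *Igf2r* domain both genes had positive fold changes. *Igf2r* encodes the receptor that clears IGF2 and sorts lysosomal enzymes, and had 101, 105 and 145 CPM in wild-type against 118, 116 and 179 CPM in S138A libraries. Wild-type 3 was above S138A A and B, so the groups overlapped. edgeR estimated a log2 fold change of 0.24 (adjusted p = 0.670), with 0.18 (adjusted p = 0.0435) in the 4 libraries. Without S138A C the log2 fold change was 0.00022 (adjusted p = 0.999 from edgeR). *Airn* had only 16, 9 and 8 counts in wild-type against 28, 24 and 18 in S138A libraries, or 0.48, 0.28 and 0.21 against 0.81, 0.65 and 0.49 CPM. Its groups did not overlap, S138A C lying just above wild-type 1. As a log2 fold change this was 0.99 (SE 0.42, adjusted p = 0.349 from edgeR, 0.0623 with the block). The 2 genes share no annotated exon bases, though *Airn* runs through the start of *Igf2r*.

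The *Snrpn* domain was represented by *Ndn*, *Magel2* and *Mkrn3*, all paternally expressed, and they did not move together. *Ndn*, the gene of the growth suppressor necdin, had 12.7, 11.3 and 9.10 CPM in wild-type against 15.9, 16.6 and 7.47 CPM in S138A libraries. S138A A and B were the highest of the 6 libraries and S138A C the lowest. Its log2 fold change was 0.28 in all libraries (adjusted p = 0.739 from edgeR) and 0.44 in the 4 libraries, where it was called higher (adjusted p = 0.0122), while S138A C was 0.28 below wild-type 3 on the log2 scale. *Magel2*, a gene of ubiquitin ligase regulation at endosomes, had 1.36, 1.36 and 0.45 CPM in wild-type against 1.77, 2.45 and 0.65 in S138A libraries, on 17 to 90 counts (log2 fold change 0.62, adjusted p = 0.686 from edgeR). *Mkrn3*, the gene of a RING finger protein that holds back puberty, had 8.57, 8.73 and 9.78 CPM in wild-type against 8.17, 7.04 and 6.79 CPM in S138A libraries. The groups did not overlap, and the log2 fold change of -0.30 had an adjusted p of 0.460 from edgeR and 0.142 with the block.

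The *Peg3* domain varied mainly with the 2 libraries that stood apart. *Usp29*, a ubiquitin protease gene, had 1.63, 1.90 and 9.15 CPM in wild-type against 1.51, 1.33 and 4.42 CPM in S138A libraries. Wild-type 3 and S138A C were far above the other libraries of their genotype. The log2 fold change was -0.81 (SE 0.78, adjusted p = 0.692 from edgeR), and without wild-type 3 it was 0.45. limma-voom with the block called it lower (adjusted p = 0.0446). *Peg3*, the gene of a zinc finger protein with roles in growth and maternal care, and *Zim1*, a maternally expressed zinc finger gene beside it, were likewise highest in wild-type 3 within wild-type and in S138A C within S138A. *Peg3* ranged from 137 to 175 CPM in wild-type and from 136 to 156 in S138A libraries, and *Zim1* from 1.49 to 2.44 and from 1.58 to 3.67. Their log2 fold changes were -0.09 and 0.34, and neither was called in any fit.

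At the *Peg10* domain on chromosome 6, *Asb4*, the gene of a substrate receptor of ubiquitin ligases, had 0.97, 0.89 and 0.50 CPM in wild-type against 0.61, 0.43 and 0.22 CPM in S138A libraries. S138A A lay above wild-type 3. Its log2 fold change of -0.90 (SE 0.46) was the lowest of the maternal class and was not called (adjusted p = 0.443 from edgeR, 0.0639 with the block), on 8 to 32 counts. *Peg10* ranged from 1049.8 to 1141 CPM in wild-type and from 749 to 1133 in S138A libraries (log2 fold change -0.22). *Sgce*, the gene of epsilon-sarcoglycan, had 1.90 to 2.54 and 1.82 to 3.34 CPM, and *Ppp1r9a*, the gene of neurabin, 56.3 to 59.5 and 49.1 to 74.2 CPM. The signs of *Sgce* and *Ppp1r9a* turned negative in the 4 libraries (-0.09 and -0.19).

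The remaining genes were not called in all 6 libraries. *Impact*, a translation regulator, had 176, 182 and 162 CPM in wild-type against 167, 158 and 112 CPM in S138A libraries. S138A C was well below the rest, and the log2 fold change was -0.26 (adjusted p = 0.525 from edgeR, 0.0804 with the block). DESeq2 with the block called it lower (adjusted p = 0.0473). *Mest*, the gene of a hydrolase-like membrane protein of mesoderm, ranged from 99.6 to 145 and from 74.3 to 133 CPM, and *Copg2*, a coatomer subunit gene, from 53.03 to 65.1 and from 54.8 to 103 CPM. These 2 genes share 912 exon bases on opposite strands. *Slc38a4* ranged from 239.9 to 315 and from 225 to 369 CPM, *Grb10*, an adaptor that dampens insulin signalling, from 331 to 379.7 and from 323 to 349 CPM, and *Blcap*, the host of *Nnat*, from 32.98 to 42.0 and from 35.9 to 44.5 CPM. Their log2 fold changes lay between -0.19 for *Mest* and 0.30 for *Copg2*.

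**Figure D3:**
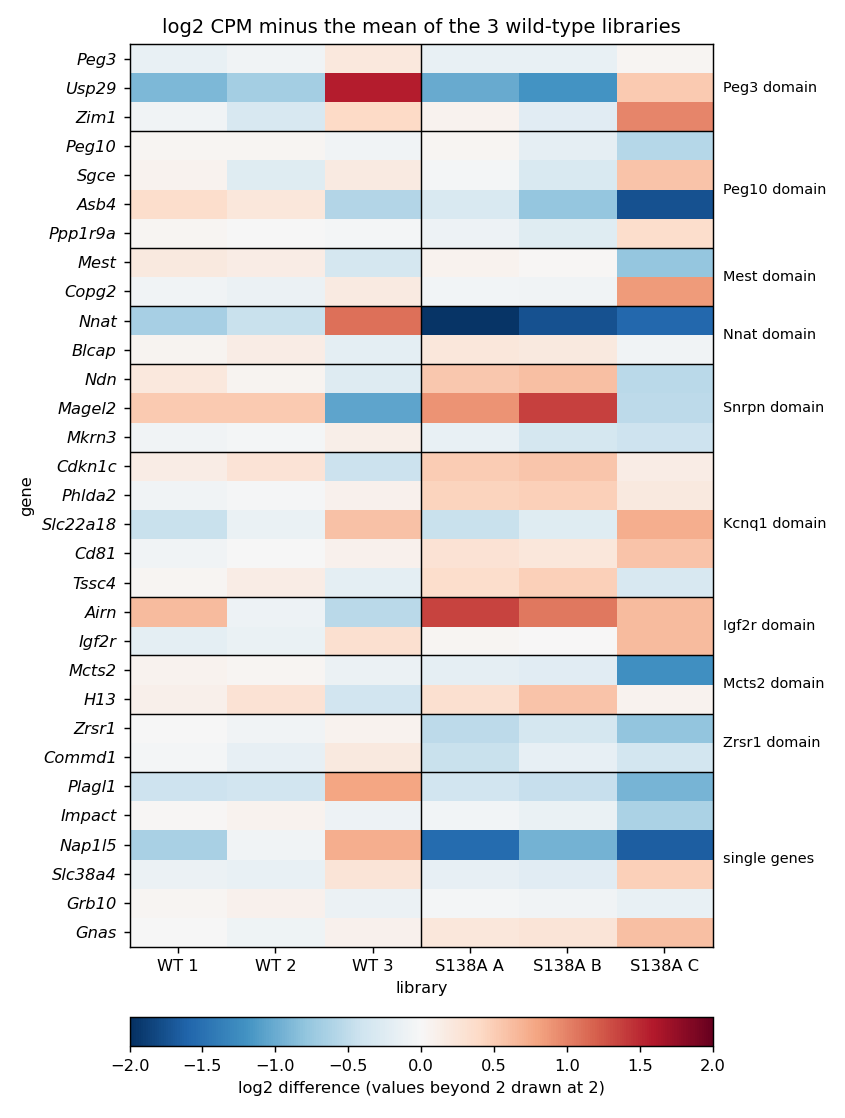
The log2 CPM of the 31 imprinted genes tested in each library, minus the mean of the 3 wild-type libraries, with libraries on the horizontal axis and genes on the vertical axis ordered by domain. Blue is lower and red higher, and values beyond 2 are drawn at 2. *Nnat* and *Nap1l5* are blue in all 3 S138A libraries, and *Usp29* is red in wild-type 3 and S138A C.

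The deviation of wild-type 3 and S138A C was seen in a similar share of the imprinted genes and of all genes tested. In 15 of the 31 genes (48.4%) both libraries lay outside the range of the other 4 on the same side, against 49.0% of all genes tested. The 8 higher ones were *Peg3*, *Usp29*, *Zim1*, *Sgce*, *Slc38a4*, *Copg2*, *Slc22a18* and *Igf2r*, and the 7 lower ones were *Mest*, *Ndn*, *Magel2*, *Blcap*, *Tssc4*, *Grb10* and *H13*. The largest shift in wild-type was that of *Usp29*, 2.37 higher on the log2 scale in wild-type 3 than in the mean of wild-type 1 and 2. *Magel2* differed by -1.58 by the same measure.

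The genotypes were also compared within each set of libraries. S138A C lay further from the rest of its genotype than wild-type 3 did. The median absolute log2 difference was 0.53 against 0.32 over the 31 genes, and 0.39 against 0.33 over all genes tested. The difference of S138A C from wild-type 3 therefore still holds part of the shift. For *Mcts2* the log2 difference was -1.03 in S138A C and -0.17 in wild-type 3. The difference of S138A A and B from wild-type 1 and 2 had the same sign as that of S138A C from wild-type 3 in 25 of the 31 genes (80.6%), against 69.8% of all genes tested. *Nnat* differed by -1.30 and -2.67 on the log2 scale in the 2 sets, *Nap1l5* by -0.87 and -2.36, *Zrsr1* by -0.41 and -0.86, and *Mcts2* by -0.26 and -1.12. All 4 of these paternally expressed genes differed more between S138A C and wild-type 3. For *Nnat* and *Nap1l5* wild-type 3 differed from wild-type 1 and 2 by 1.65 and 1.09 on the log2 scale. S138A C differed from S138A A and B by 0.28 and -0.40 in these genes. For *Zrsr1* the difference was 0.10 in wild-type 3 and -0.35 in S138A C. On the maternal side *Cdkn1c* differed by 0.32 and 0.59, *Cd81* by 0.30 and 0.48, and *H13* by 0.25 and 0.46. The 6 genes whose sign differed between the sets were *Ndn*, *Tssc4*, *Sgce*, *Slc38a4*, *Ppp1r9a* and *Slc22a18*.

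**Figure D4:**
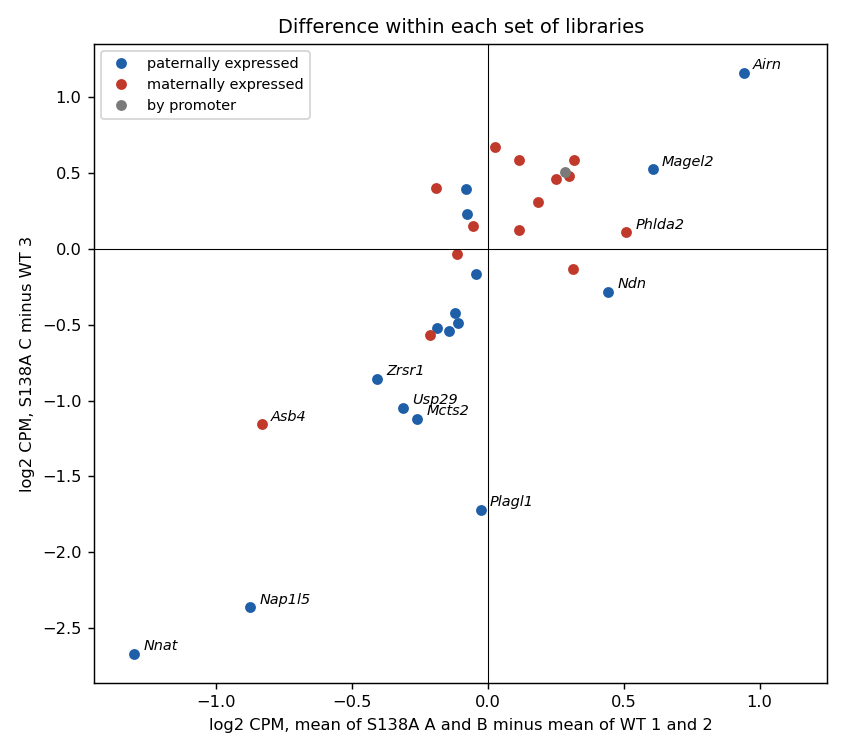
The difference between the mean log2 CPM of S138A A and B and that of wild-type 1 and 2 (horizontal axis) against the difference between S138A C and wild-type 3 (vertical axis), 1 point per imprinted gene. Colours give the allele expressed. *Nnat* lies lowest at -1.30 and -2.67, and 25 of the 31 genes lie in the quadrants where both differences have the same sign.

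Domains that hold a maternally and a paternally expressed gene allow a ratio within each library, which does not depend on library scaling. The log2 ratio of counts, maternal over paternal with 0.5 added to each count, was compared for 7 pairs. The counts were not divided by length, so only the difference between the genotypes is read from it. *Blcap* over *Nnat* was 4.22, 4.10 and 2.21 in wild-type against 5.70, 5.45 and 5.004 in S138A libraries, a difference of 1.87. *H13* over *Mcts2* was -0.94, -0.73 and -1.25 in wild-type against -0.46, -0.19 and 0.33 in S138A libraries, a difference of 0.87. For both pairs the groups did not overlap (exact two-sided permutation p = 0.1, the smallest possible, and 0.35 after Benjamini-Hochberg adjustment over the 7 pairs). The other 5 pairs overlapped between the genotypes. The differences were 0.46 for *Copg2* over *Mest*, 0.36 for *Zim1* over *Peg3*, 0.24 for *Ppp1r9a* over *Peg10*, 0.23 for *Commd1* over *Zrsr1* and -0.79 for *Igf2r* over *Airn*. With each library left out in turn, the difference for *Blcap* over *Nnat* ranged from 1.22 (without wild-type 3) to 2.23 and for *H13* over *Mcts2* from 0.65 (without S138A C) to 1.04. Without S138A C it fell to the lowest value for *Copg2* over *Mest* (-0.11, up to 0.76 without S138A A), *Ppp1r9a* over *Peg10* (-0.10, up to 0.43 without S138A A), *Zim1* over *Peg3* (0.07, up to 0.57 without S138A B) and *Commd1* over *Zrsr1* (0.13, up to 0.30 without S138A A). For *Igf2r* over *Airn* it lay between -1.20 without wild-type 1 and -0.36 without wild-type 3. The pair of *Cdkn1c* and *Kcnq1ot1* was not analysed here.

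**Figure D5:**
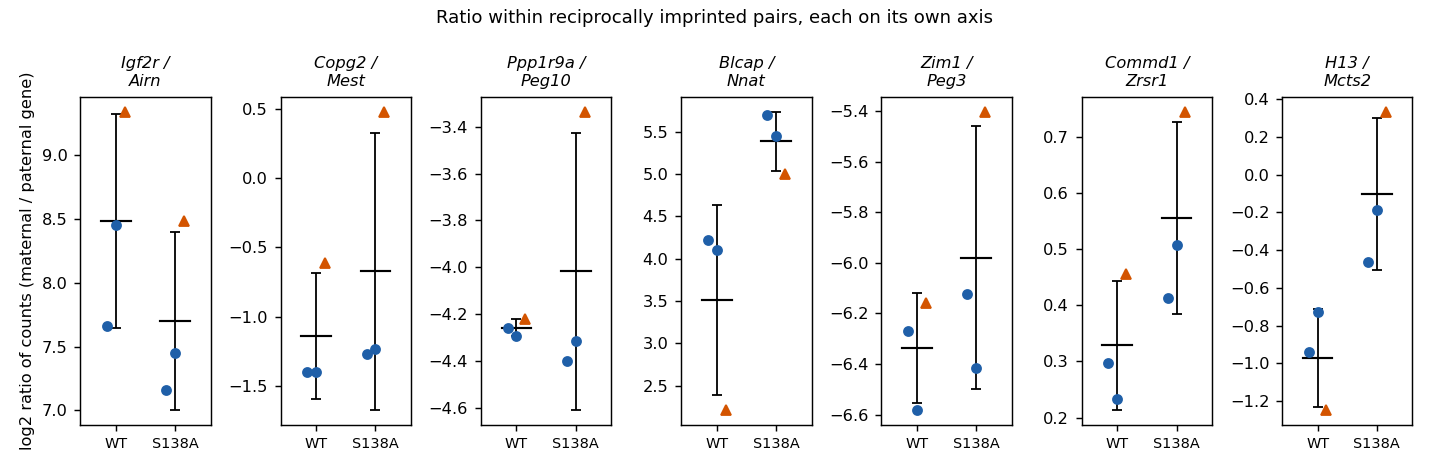
The log2 ratio of counts of the maternally over the paternally expressed gene in 7 pairs, each panel on its own vertical axis with wild-type (WT) and S138A on the horizontal axis. Points are libraries, with triangles for wild-type 3 and S138A C, and lines are means with SD of 3 libraries. *Blcap* over *Nnat* and *H13* over *Mcts2* do not overlap between the genotypes, with differences of 1.87 and 0.87.

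Factors that set or keep imprints were measured in the same libraries. Of 25 tested, edgeR called 0 in the 6 libraries, and with the block 1 was called higher and 7 lower (4% and 28%, against 10.7% and 9.13% of all genes). *Dppa3*, which protects the maternal genome from loss of methylation in the zygote, had 19.5, 18.3 and 29.7 CPM in wild-type against 2.81, 2.31 and 4.21 CPM in S138A libraries. All mutant libraries were far below all wild-type libraries. On the log2 scale the fold change was -2.85 (SE 0.30, adjusted p = 0.0789 from edgeR, 0.000231 with the block). *Khdc3*, a maternal factor of early embryos, had a log2 fold change of -0.88, and *Kdm1b*, a histone demethylase needed for methylation in the egg, of -0.44, and both were called lower with the block (adjusted p = 0.00275 and 0.0214). *Atrx*, a chromatin remodeller, was called lower as well, at -0.46. So were *Dnmt3b*, a de novo DNA methyltransferase (-0.33, adjusted p = 0.0163), *Zfp42* (-0.35, 0.0321) and *Arid4a* (-0.28, 0.0386), while *Tet3*, which oxidizes methylated cytosine, was the gene called higher (0.46, adjusted p = 0.0137 from edgeR with the block). Genes of factors named above as keeping imprints had log2 fold changes of -0.09 for *Zfp57*, -0.15 for *Trim28*, 0.09 for *Dnmt1* and -0.03 for their partner *Uhrf1*, and these 4 were not called with the block.

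Genes that neighbour the domains but are not in the set were read from the same regions. They were not screened for imprinting, so they do not stand for genes that are not imprinted. Of 45 tested, 3 were called higher and 7 lower with the block (22.2%, against 19.8% of all genes), and the median log2 fold change was 0.02. Among them *Usp34* (-0.44) and *Xpo1* (-0.37), near *Zrsr1* and *Commd1*, had the lowest p-values in the 6 libraries and were called lower with the block (adjusted p = 0.00948 and 0.0114 from edgeR). The other neighbours called lower were *Fignl1* (-0.34), near *Grb10*, *Slc38a2* (-0.46), a paralog beside *Slc38a4*, *Pon2* (-0.50), *Ube3a* (-0.29) and *Atp10a* (-0.64). *Cobl* (0.28), also near *Grb10*, *Vstm2l* (1.43), on at most 64 counts, and *Phactr2* (0.55) were called higher.

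In bulk RNA fewer cells of a type and less RNA per cell cannot be told apart. Markers of fibroblasts or feeder cells summed to 43.1 to 72.7 CPM in wild-type and 79.3 to 116 CPM in S138A libraries, over 10 markers of which 4 were at 1 CPM or more in every library. *Col1a1* was the highest of them, with 21.1, 20.5 and 36.1 CPM against 68.8, 75.0 and 37.9 CPM, while *Fap* was at 0 counts in all libraries and *Lum* had at most 1 count. With the block 3 of 6 tested, *Col1a1*, *Col3a1* and *Thy1*, were called higher (50%, against 10.7% of all genes). *Col1a2* went the other way (log2 fold change -0.26) and was not called, and neither were *Pdgfrb* (0.40) and *Postn* (0.37). Markers of primitive endoderm summed to 403 to 476 CPM in wild-type and 419 to 492 in S138A libraries. Those of neural cells, in which *Nnat*, *Ndn* and *Magel2* are active, summed to 252, 261 and 145 CPM in wild-type against 251, 261 and 119 CPM in S138A libraries, so they were lowest in wild-type 3 and S138A C. Of 10 neural markers 9 had a row and 5 were tested, and *Nes* and *Tubb3* made up most of the sum. *Pax6*, given above, and *Otx2* (log2 fold change -0.45, adjusted p = 0.0238 from edgeR) were called lower with the block (40%, against 9.13% of all genes). *Nes* (-0.03), *Tubb3* (0.22) and *Map2* (-0.25) were not called. The part of these cell types in the values above was not tested.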

How the data were processed

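PolyA RNA of E14 ESCs was sequenced in 3 wild-type and 3 S138A libraries prepared with a stranded kit. Per the labels, the authors used CASAVA (1.8.4) for base calls and TopHat2 (2.0.11) with mm9 (NCBIM37) for alignment. The deposited counts per gene are raw and came from featureCounts. Its strand and multi-mapping settings are not given in the sources used here. The ERCC spike-in RNA named in the labels had 0 rows in the table, so counts were scaled by TMM factors. The deposited table holds 37620 genes, 0 rows that name no gene and 0 columns left unused. Its S138A columns were matched to the genotype only, not to single samples.

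The 35 genes and the other gene lists were chosen with earlier results of these data known, so a pattern already seen in them is not independent support. Genes were matched by Ensembl identifier. R 4.3.3 was used with the packages edgeR 4.0.16, DESeq2 1.42.0 and limma 3.58.1. Genes were kept by filterByExpr (minimum count 10, minimum total 15), fitted with edgeR's quasi-likelihood test on genotype, and called where the Benjamini-Hochberg adjusted p was under 0.05 over all 16023 genes tested. The standard error (SE) was taken as the absolute log2 fold change over the root of F. The scripts were tested on simulated counts. CPM are TMM-normalized, with a prior count of 0.5 on the log2 scale, and levels between genes are per kilobase of exon of GENCODE M21. That annotation and the promoter windows are on GRCm38, another build than that of the counts, and were used for lengths, overlaps and sequences only. At 33227593 to 37169770 counts per library counting error is small for genes with many counts. It is larger for the genes whose counts are printed and for *Nnat*, with 29, 36 and 41 counts in S138A libraries. *Usp29*, *Plagl1*, *Sgce*, *Zim1* and *Slc22a18* also had few counts in some libraries.

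Values in every library are printed for genes that do not overlap between the genotypes, are called by any fit or have an absolute log2 fold change of 0.5 or more, and the others are given by range.

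The replicate block numbers each S138A library by the last digit of its column name, and this pairing comes from these names, not from a stated design. Deviations from the group means correlated at 0.511, 0.474 and 0.741 for the 3 pairs, and at 0.498 and 0.486 with the numbers 1 and 2 crossed. Wild-type 1 and 2 differed by 2.13 times the sampling noise (median squared difference) and S138A A and B by 3.03 times, so they were counted as separate libraries. Alternatives were RLE factors, a filter of 1 count in all or of 1 CPM in 3 libraries, DESeq2, limma-voom, the block, an adjusted p under 0.01, a prior count of 2 for the ratios, each library left out, and the 4 libraries without wild-type 3 and S138A C. The crossed block, the block in limma-voom and DESeq2 and the counts of signs by class with each library left out were added after seeing the data.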

Additional observations from a re-analysis of the deposited data

How the results depend on the processing

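The number of imprinted genes called, 0 of 31 in the comparison of all 6 libraries, stayed at 0 with RLE factors, with either other filter, with limma-voom and each library left out in turn (0 to 0). It was 2 with DESeq2, 7 with the replicate block, 7 with the replicate block and the numbers 1 and 2 crossed, 8 with the replicate block in limma-voom, 8 with the replicate block in DESeq2 and 10 in the 4 libraries without wild-type 3 and S138A C. Over all genes, 0 were called in the comparison of 6 libraries, 4 with no low-count filter, 797 with DESeq2, 3180 with the replicate block, 3253 with it crossed, 3234 with it in limma-voom, 2728 with it in DESeq2 and 4756 in the 4 libraries. With each library left out in turn the count ranged from 0 to 79, and 79 came without S138A C. The cause was not tested. In edgeR the block changed the call of *Nnat*, *Zrsr1*, *Cdkn1c*, *Phlda2*, *Cd81*, *H13* and *Gnas* and of no other imprinted gene. With the numbers crossed it called *Igf2r* in place of *H13*. In limma-voom the block also called *Usp29*, and in DESeq2 it also called *Impact* and *Mcts2* but not *H13*.

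The sign of the log2 fold change turned in the 4 libraries for *Sgce* (-0.089), *Slc38a4* (-0.078), *Ppp1r9a* (-0.19) and *Slc22a18* (-0.057). With each library left out in turn, signs turned for 9 genes. The ranges were -0.18 to 0.28 for *Sgce*, -0.22 to 0.19 for *Slc38a4*, -0.42 to 0.40 for *Slc22a18*, -0.17 to 0.14 for *Ppp1r9a*, -0.11 to 0.56 for *Zim1*, -0.073 to 0.45 for *Copg2*, -0.35 to 0.027 for *Mest*, -0.17 to 0.020 for *Peg3* and -1.59 to 0.45 for *Usp29*. Direction in the 22 other genes tested was the same under each alternative in which they were tested, though *Igf2r* was at 0.00022 without S138A C. *Airn*, *Nap1l5* and *Asb4* were not tested under the filter of 1 CPM in 3 libraries. The positive log2 fold changes among 14 maternally expressed genes numbered 7 without S138A C and 10 or 11 without any other library. *Nap1l5*, *Airn* and *Asb4* rest on few counts, which limits what the libraries can show for them.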
